A study of Mus musculus with 6 samples.

Results

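The numbered Zfp genes are mouse zinc finger protein genes whose symbol is Zfp followed only by digits. The members described here are the protein-coding ones, by GENCODE annotation of GRCm38, with a mean CPM of at least 2 over the 6 libraries, CPM being the gene's reads per 1000000 reads counted on genes. That rule took 272 of 365 such genes, out of 55401 genes with a line in the count tables. Members were chosen by this mean over all libraries and not by the difference between the groups. A gene near the minimum can still pass or fail it through the libraries of a single group. Just above the minimum stood Zfp174 at 2.04, Zfp937 at 2.07 and Zfp286 at 2.12 CPM. Just below it stood Zfp428 at 1.98, Zfp442 at 1.80 and Zfp229 at 1.71 CPM. Zfp428, Zfp442 and Zfp229 each had a mean above 2 in the Satb1 cKO libraries, described below, and a mean under 2 in control. Of the 93 genes left out, 18 had a read in no library.

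RNA was sequenced from splenic CD4+ T cells, bead-enriched as naive cells and stimulated through CD3 and CD28 for 24 h. The 3 control libraries carry the genotype WT in the labels, and the 3 Satb1 cKO libraries come from mice with loxP-flanked Satb1 alleles and CD4-Cre, a recombinase under Cd4 regulatory sequences that acts in the T cell lineage. SATB1 is a T cell chromatin organiser. Whether the controls carried Cre or flox alleles or were littermates is not stated, so Cre, genetic background and the deletion cannot be told apart. Nor is it stated whether each library came from its own mouse; p-values then reflect the variation among these 6 libraries alone, part of which may be technical.

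Most numbered Zfp genes encode C2H2 zinc finger proteins, in which arrays of short zinc-bound modules read DNA sequence. The largest family among them carries a KRAB domain at the N-terminus, which recruits TRIM28 and through it the H3K9 methyltransferase SETDB1, HP1 proteins and the NuRD complex to silence endogenous retroviruses, imprinted loci and other targets. These genes multiplied by tandem duplication and lie in clusters of related copies. Other numbered Zfp genes encode unrelated proteins that share only a zinc finger, among them RNA-binding proteins, ubiquitin ligases and ribosome factors. A residue pattern for the KRAB A box was found in the GENCODE coding sequences of 153 members and not in the other 119. The pattern misses divergent boxes, such as those of Zfp212, Zfp287 and Zfp746.

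Promoters are shown for 4 members of the chromosome 17 cluster, which held the most lower calls of any cluster. They let duplicated copies be compared, but leave out Zfp51, which lies between Zfp54 and Zfp53. Each is the 160 bases before the RefSeq start, 5′ to 3′ on the plus strand of GRCm38.p6, and capitals mark words of 10 or more bases that occur in at least 2 of the 4 windows. The windows are chr17:21383588-21383747 for Zfp677, chr17:21423067-21423226 for Zfp54, chr17:21488828-21488987 for Zfp53 and chr17:21535379-21535538 for Zfp52.
Zfp677: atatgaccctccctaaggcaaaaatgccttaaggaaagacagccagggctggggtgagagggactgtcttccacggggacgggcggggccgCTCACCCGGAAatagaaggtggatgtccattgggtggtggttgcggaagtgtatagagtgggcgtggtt
Zfp54: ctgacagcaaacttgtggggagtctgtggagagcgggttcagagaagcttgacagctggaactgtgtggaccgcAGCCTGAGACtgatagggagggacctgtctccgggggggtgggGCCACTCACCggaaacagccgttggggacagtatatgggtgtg
Zfp53: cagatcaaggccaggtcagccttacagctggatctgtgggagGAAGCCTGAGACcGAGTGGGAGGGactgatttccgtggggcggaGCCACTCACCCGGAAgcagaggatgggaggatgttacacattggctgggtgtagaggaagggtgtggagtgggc
Zfp52: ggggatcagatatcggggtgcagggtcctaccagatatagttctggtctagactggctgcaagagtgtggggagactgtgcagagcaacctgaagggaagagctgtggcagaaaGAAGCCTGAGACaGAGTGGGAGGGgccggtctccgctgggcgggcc
Zfp53 and Zfp52 shared the 12 bases GAAGCCTGAGAC, a word found in 3 of the 8988 matched 300-base promoters of tested protein-coding genes, those of Zfp52, Zfp53 and their neighbour Zfp948. Zfp54 held the inner part AGCCTGAGAC, present in 14 promoters (0.156%). Zfp677 and Zfp53 shared CTCACCCGGAA, present in 13 promoters (0.145%). Of the 4 genes, Zfp53 fell most and Zfp52 least in Satb1 cKO (values below), and these copies shared the longest word. A shared word is a description of the letters and shows no factor binding there.

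Gene reads ranged from 14895389 to 20266626 per library. Satb1 itself stood at 712, 851 and 727 CPM in control and 426, 546 and 462 CPM in Satb1 cKO, a log2 fold change of -0.68 (SE 0.09, adjusted p = 9.70e-05). Reads on exons that Cre does not remove still count toward the gene. The 9 listed CD4 T cell genes summed to 2857 to 2969 CPM in control and 2168 to 2260 CPM in Satb1 cKO, 2 of them called higher and 5 lower, Cd4 itself with a log2 fold change of -1.75. Myeloid and red cell markers rose in Satb1 cKO. The 8 myeloid genes summed to 11.7 to 14.3 against 55.9 to 126 CPM (7 of 7 tested called higher), the 7 red cell genes to 24.9 to 31.4 against 310 to 1862 CPM (7 of 7), with cKO replicate 1 the lowest. The 6 B cell genes summed to 3.74 to 7.45 against 9.96 to 12.2 CPM (2 of 5 called higher). The 4 NK cell genes, none of them tested, summed to 0.583 to 1.13 against 1.14 to 2.52 CPM. No listed marker was at 0 in every library. In bulk RNA, fewer cells of a type and less RNA per cell cannot be told apart. The part of these cells in the results below was not tested.

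Numbered Zfp genes tended to be lower in Satb1 cKO, by small amounts. Of the 272 members, 74 were called lower and 20 higher at an adjusted p under 0.05 (edgeR, quasi-likelihood test; Benjamini-Hochberg over all genes tested), and 178 were not called. All 272 passed the filter on low counts. The share called lower was 27.2%, beside 20.7% of the 13364 genes tested and 23.6% of protein-coding genes with a mean CPM of at least 2. The share called higher was 7.35%, beside 21.6% and 24.6%. Together 34.6% of members were called, fewer than the 42.3% of all genes tested and the 48.2% of the protein-coding genes. Their median log2 fold change was -0.11, against 0.0034 over all genes tested, and 192 of 272 values were negative. All Satb1 cKO libraries lay below all control libraries for 94 members (34.6%, against 26.5% of all genes tested) and above them for 37 (13.6%, against 27.0%). A change of 2-fold or more was called for 3 members downward (Zfp53, Zfp608 and Zfp287) and for 2 upward (Zfp827 and Zfp516). In each direction this was a smaller share than among all genes tested or the protein-coding genes. Zfp608 met the CPM minimum through its control libraries. Without control replicate 2, and likewise without control replicate 3, 12 members were called higher.

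In each Satb1 cKO library the median member was below its control mean, at log2 ratios of -0.12, -0.08 and -0.10 in replicates 1 to 3 (SD 0.02). The members took 0.903%, 0.893% and 0.901% of gene reads in control and 0.811%, 0.839% and 0.837% in Satb1 cKO. The groups did not overlap in this share, and each library's 272 members together made up under 1% of its reads. With each library left out in turn, 43 of the 74 lower calls and 10 of the 20 higher calls held every time, and all of these were also called by DESeq2.

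**Figure D1:**
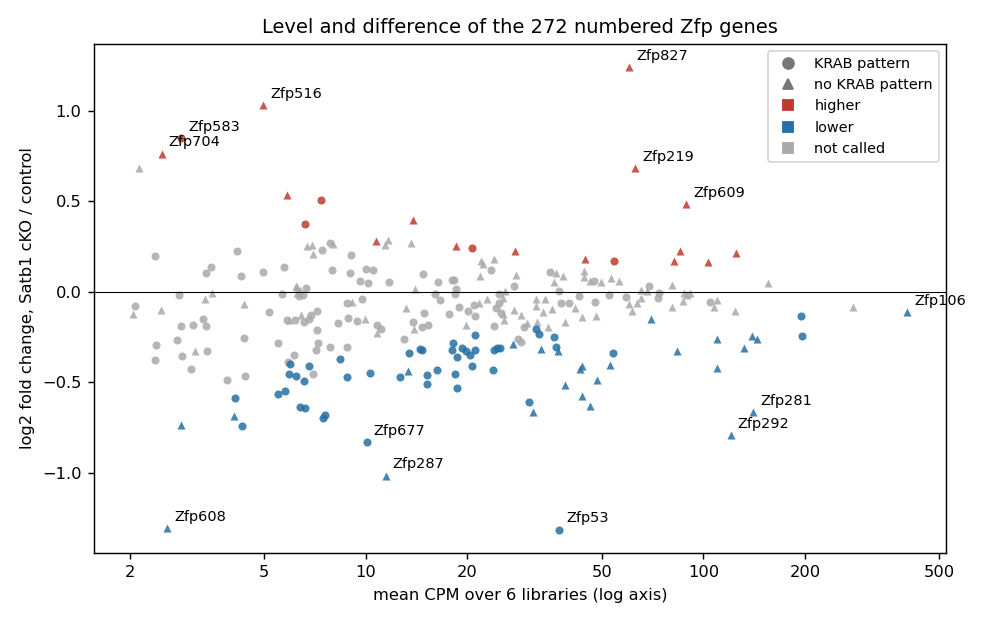
Mean CPM over the 6 libraries (x, log axis) against the log2 fold change of Satb1 cKO over control (y) for the 272 members. Circles carry the KRAB pattern and triangles do not; blue and red points were called lower (74) and higher (20), and most points lie below 0.

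Among members with the KRAB pattern lower calls far outnumbered higher calls. With the pattern, 48 of 153 were called lower (31.4%) and 5 higher (3.27%), with a median log2 fold change of -0.18 and 119 negative values. Without it, 26 of 119 were lower (21.8%) and 15 higher (12.6%), with a median of -0.05. Of all genes tested, 20.7% were lower and 21.6% higher, so the share called lower without the pattern was near the background. The 5 higher KRAB members, named after their values were seen, were Zfp583, Zfp870, Zfp90, Zfp747 and Zfp655, and Zfp583 alone held its call with every library left out in turn. The 48 lower calls dropped to 28 without Satb1 cKO replicate 1 and to 31 without control replicate 3. The 5 higher calls became 2 without control replicate 2, control replicate 3 or Satb1 cKO replicate 2, and 3 without Satb1 cKO replicate 3. The difference between the 2 classes was not tested.

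KRAB members were also set beside protein-coding genes of like abundance. Between a mean CPM of 10 and 20, 16 of 36 KRAB members were lower and 0 higher, beside 22.3% and 20.3% of 1322 protein-coding genes; none of the 36 was higher at an unadjusted p under 0.05 in edgeR or called higher by DESeq2. Between 20 and 50 CPM, 14 of 35 were lower and 1 higher, beside 23.2% and 20.5% of 2499 genes. Between 5 and 10 CPM, 13 of 48 were lower and 2 higher, beside 21.2% and 20.7% of 924 genes. Below 5 CPM only 2 of 24 were lower and 1 higher, beside 15.2% and 23.2% of 861 genes. At 50 CPM or more, 3 of 10 were lower and 1 higher, beside 26.4% and 29.2% of 4452 genes, and their median log2 fold change was -0.03.

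Calls were counted by the number of C2H2 fingers as well. Of 23 members with 0 to 2 fingers, 7 were lower and 4 higher, and of 36 with 3 to 6 fingers, 7 were lower and 7 higher. Of 103 members with 7 to 11 fingers, 22 were lower and 6 higher. Of 75 with 12 to 16 fingers, 25 were lower and 2 higher, and of 35 with 17 or more, 13 were lower and 1 higher. In that order the shares lower were 30.4%, 19.4%, 21.4%, 33.3% and 37.1%, beside 20.7% of all genes tested. The shares higher were 17.4%, 19.4%, 5.83%, 2.67% and 2.86%, beside 21.6%. From 3 to 11 fingers the share lower was thus near the background. Finger number and the KRAB pattern go together, with a median of 12 fingers with the pattern and 7 without, so these counts are not separate evidence.

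**Figure D2:**
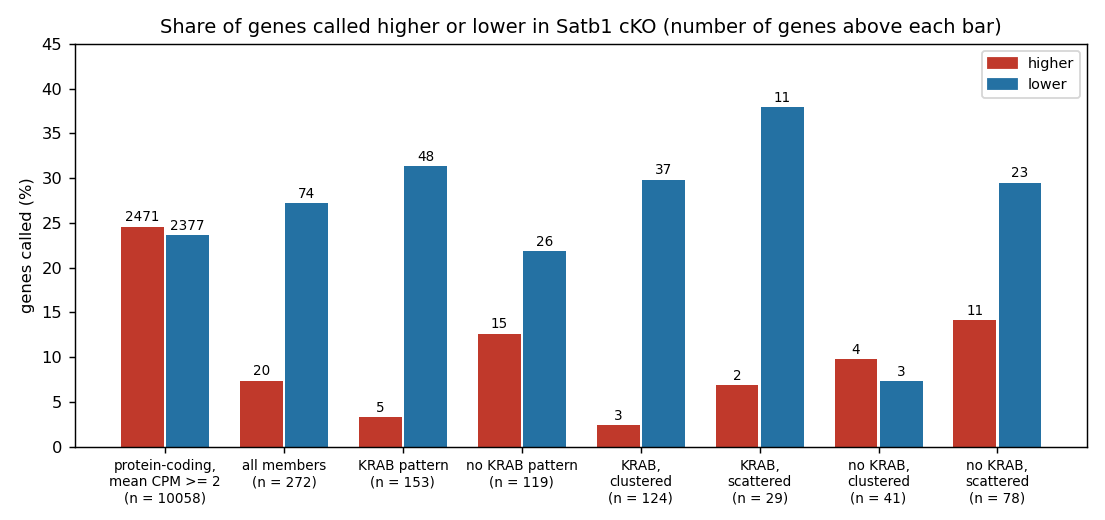
Percent of genes called higher (red) and lower (blue) in Satb1 cKO, with the number of genes above each bar, for protein-coding genes at a mean CPM of at least 2, all members, and members split by the KRAB pattern and by position. Red bars are shorter than blue in every KRAB class, with 5 against 48 genes in all, while the 2 bars of all protein-coding genes are close to equal.

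By position, 165 members lay in 24 clusters, defined as runs of at least 3 members with neighbouring starts at most 1 Mb apart, and 107 were scattered over the genome. Clusters are named by chromosome and a letter in order of position. Among clustered members 40 were lower (24.2%) and 7 higher (4.24%), and among scattered members 34 were lower (31.8%) and 13 higher (12.1%). Beside 23.6% lower and 24.6% higher among protein-coding genes at a mean CPM of at least 2, the clustered members' share of lower calls was near the background. Clustered KRAB members (124, 37 lower and 3 higher) and scattered KRAB members (29, 11 lower and 2 higher) had medians of -0.18 and -0.28. Of 41 clustered members without the pattern only 3 were lower and 4 higher. The median log2 fold change was negative in 21 of the 24 clusters; 16 clusters held a lower call, 6 a higher call, and 5 no call. Without Satb1 cKO replicate 1 the 40 lower calls in clusters were 23, and without Satb1 cKO replicate 3 they were 26. The 7 higher calls were 2 without control replicate 2 and 3 without control replicate 3, Satb1 cKO replicate 2 or Satb1 cKO replicate 3.

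**Figure D3:**
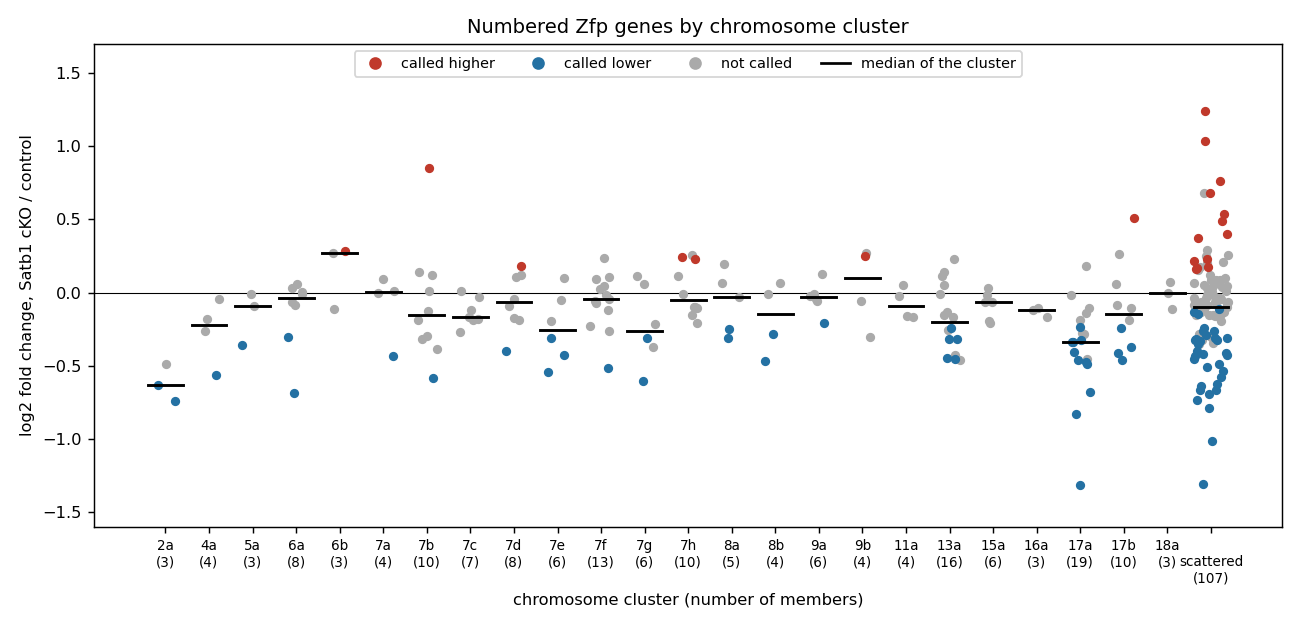
Log2 fold change of each member (y) by chromosome cluster (x, number of members in parentheses), with the cluster's median as a black bar. Blue points were called lower and red higher; cluster 17a, with 19 members, holds 11 blue points and no red, and cluster 7f, with 13 members, holds 1 blue point.

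Cluster 17a, on chromosome 17 from 21008903 to 23564238, was the largest, with 19 members, 18 of them with the KRAB pattern. In it 11 members were lower and 0 higher, 18 of 19 log2 fold changes were negative, and the median was -0.34. The share lower was 57.9%, beside 20.7% of all genes tested and 31.4% of all KRAB members. Its members summed to 373.5, 362.2 and 365.4 CPM in control and 246.2, 308.8 and 279.5 CPM in Satb1 cKO. Every Satb1 cKO sum lay below every control sum, with replicate 1 the lowest. Without Satb1 cKO replicate 1, or without replicate 3, 7 members were called lower. At an unadjusted p under 0.05 in edgeR, 12 members were lower and 1 higher, and DESeq2 called 8 lower and 0 higher.

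The first 6 members along cluster 17a, Zfp160, Zfp677, Zfp54, Zfp51, Zfp53 and Zfp52, lie side by side in 0.554 Mb and were all called lower, a stretch picked after its values were seen. Zfp53 stood at 51.2, 55.7 and 53.1 CPM in control and 19.6, 23.9 and 20.8 CPM in Satb1 cKO. It fell by 1.31 on the log2 scale (SE 0.0763, edgeR adjusted p = 2.54e-07), the largest fall of all members, and the groups were far apart. Zfp677 stood at 12.7, 13.2 and 12.8 CPM in control and 5.78, 8.30 and 7.67 CPM in Satb1 cKO, a fall of 0.83 on the log2 scale (SE 0.135, adjusted p = 0.000508). Zfp51 (log2 fold change -0.41), Zfp54 (-0.49), Zfp52 (-0.34) and Zfp160 (-0.23) fell less. In none of the 6 did the groups overlap, which held for 72 of the 74 members called lower and so adds little to the calls. All Satb1 cKO libraries lay below all control libraries in 26.5% of all genes tested. Zfp52 lost its call without control replicate 3 (adjusted p = 0.0522), and Zfp160 without control replicates 2 or 3 or Satb1 cKO replicate 1 (up to 0.105). Exons of Zfp52 and Zfp54 overlap genes on the opposite strand, and the strand setting of the counting is not given, so some of their reads cannot be assigned with certainty.

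The next members, Zfp948 (-0.18), Zfp983 (-0.02) and Zfp760 (-0.14), were not called and their groups overlapped. Zfp948 is the member next to Zfp52. Farther along, Zfp994 stood at 9.65, 7.99 and 10.4 CPM in control and 5.10, 6.75 and 5.67 CPM in Satb1 cKO and fell by 0.68 on the log2 scale (SE 0.15, adjusted p = 0.00359). Zfp995 (-0.46), Zfp943 (-0.32), Zfp944 (-0.34) and Zfp758 (-0.47) also fell, and none of these 4 calls survived the omission of Satb1 cKO replicate 3 (adjusted p from 0.0535 to 0.0772). Zfp943, Zfp944 and Zfp758 lost it without Satb1 cKO replicate 1 too (0.0626 to 0.106), Zfp944 and Zfp758 without control replicate 2, and Zfp758 without control replicate 1. The cluster's last members, Zfp946, Zfp945, Zfp40 and Zfp213, were not called. Zfp213, the single member of the cluster without the KRAB pattern, had a log2 fold change of 0.18 and stood higher in all 3 Satb1 cKO libraries.

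The 12 other tested genes within cluster 17a had a median log2 fold change of -0.06, with 0 higher by edgeR, DESeq2 or at an unadjusted p under 0.05. The 2 lower ones, named after their values were seen, were CT030661.1 (-0.73) and the pseudogene AC098880.2 (-0.54), and 3 of the others are numbered Zfp genes below the CPM minimum. Of 678 tested genes of chromosome 17 that are not members, 20.9% were called higher and 18.1% lower, and their median was 0.02 on the log2 scale. The 34 members of that chromosome included 17 lower and 2 higher. Satb1 lies on the same chromosome, 28.2 Mb beyond the cluster's end, and sequence linked to the modified alleles cannot be told apart from the deletion there.

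**Figure D4:**
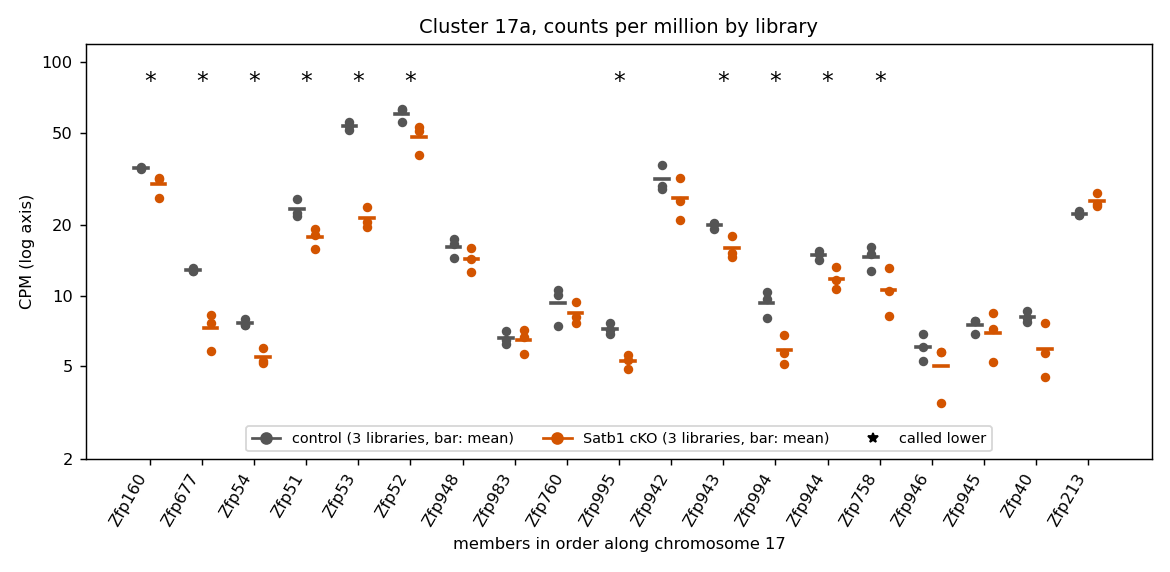
CPM in each library (points, log axis) and group mean (bars) for the 19 members of cluster 17a in order along chromosome 17; gray is control, orange Satb1 cKO. Asterisks mark the 11 members called lower, which include the first 6; Zfp53 shows the widest gap, from 51.2 or more in control to 23.9 or less in Satb1 cKO.

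In the other large KRAB clusters the medians lay nearer to 0. Cluster 13a (chromosome 13, 67038596 to 67827002) held 16 members, all with the KRAB pattern, of which 5 were lower and 0 higher, with a median of -0.20. The share lower, 31.25%, was near the 31.4% of all KRAB members, beside 23.6% of protein-coding genes at a mean CPM of at least 2. None was higher at an unadjusted p under 0.05 or in DESeq2. In it Zfp953 stood at 12.9, 11.7 and 10.8 CPM in control and 8.04, 8.47 and 9.66 CPM in Satb1 cKO, a log2 fold change of -0.45 (SE 0.119, adjusted p = 0.0103), and was the cluster's one call to hold with every library left out. The other lower members were Zfp595 (-0.32), Zfp738 (-0.32), Zfp65 (-0.24) and Zfp85 (-0.46). Without Satb1 cKO replicate 1 none of these 4 was called (adjusted p from 0.0609 to 0.103). Cluster 17b (chromosome 17, 32765496 to 33631779) held 10 members, 4 lower (40%) and 1 higher (10%), beside 23.6% and 24.6% of those protein-coding genes. There Zfp871, at 206 to 222 CPM in control and 178 to 182 CPM in Satb1 cKO, had a log2 fold change of -0.24 (SE 0.0426, adjusted p = 0.00088), while Zfp870 rose by 0.51 (adjusted p = 0.0117, and 0.0513 without control replicate 3). Zfp101 (-0.46), Zfp563 (-0.41) and Zfp799 (-0.37) were lower too, named after their values were seen. The calls of Zfp563 and Zfp799 were lost without Satb1 cKO replicate 2 or control replicate 3 (up to 0.117), that of Zfp799 also without Satb1 cKO replicate 1 and that of Zfp563 without replicate 3.

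The 3 members of cluster 2a (chromosome 2, 177464733 to 178078476) had the most negative median, -0.63. Zfp971 stood at 7.93, 7.52 and 7.91 CPM in control and 4.78, 4.98 and 5.31 CPM in Satb1 cKO (log2 fold change -0.63, adjusted p = 0.00207), and Zfp970 fell by 0.74 (adjusted p = 0.00818). Zfp931 had -0.49 and was not called (adjusted p = 0.0688). Of 4 other tested genes in that interval 3 were lower, Gm14325, Gm14326 and Gm14403, named after their values were seen. Of the 50-base words in their transcripts, 49.5% for Zfp970 and 51.1% for Zfp971 also occur in other genes' transcripts. The tables keep ambiguous and multiply aligned reads in lines of their own. Reads from the shared words may therefore be missing from these genes' counts, and how well the copies are measured separately is uncertain.

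On chromosome 7, which held 71 members in 8 clusters or scattered, 12 were lower (16.9%) and 5 higher (7.04%), beside 18.3% and 21.1% of the 941 other tested genes of that chromosome. The share called lower was thus close to that of the chromosome's other genes. Cluster 7f, with 13 members in 401 kb, held 1 call: Zfp260 stood at 44.6, 44.7 and 48.1 CPM in control and 30.2, 33.0 and 33.0 CPM in Satb1 cKO and fell by 0.51 on the log2 scale (SE 0.062, adjusted p = 6.20e-05). The quartiles of all 13 members' log2 fold changes were -0.12 and 0.05. In 7g, Zfp141 fell from 34.7, 36.5 and 39.1 to 23.9, 25.6 and 22.7 CPM, by 0.61 on the log2 scale (adjusted p = 5.77e-05). In 7e, Zfp60 fell by 0.43 (adjusted p = 0.000428) and Zfp974 (-0.55) and Zfp850 (-0.31), named after their values were seen, were lower. Without Satb1 cKO replicate 1 neither was called (0.0629 and 0.099), nor was Zfp974 without control replicate 3 or Zfp850 without control replicate 1.

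Clusters 17b and 7d held calls in both directions, with 1 higher and 1 lower in 7d, neither of them called by DESeq2. Cluster 7b also held opposite calls within one interval. Zfp583 rose from 1.97, 2.01 and 2.07 CPM to 3.26, 3.61 and 4.10 CPM, by 0.85 on the log2 scale (SE 0.19, adjusted p = 0.00408), while Zfp418 fell by 0.59 (adjusted p = 0.0293, lost without Satb1 cKO replicates 1 or 2 or control replicates 2 or 3, up to 0.101). In 7h, Zfp771 (0.23) and Zfp747 (0.24) were called higher and 0 of 10 lower (0 also at an unadjusted p under 0.05 and in DESeq2), and both calls were lost without control replicate 2 or Satb1 cKO replicate 2. No member of 7c (7 members), 15a (6), 11a (4), 16a (3) or 18a (3) was called by edgeR or DESeq2, and at an unadjusted p under 0.05 these clusters held 1, 0, 1, 1 and 0 members.

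In the remaining clusters the member of smallest p was lower in 8a (Zfp866, -0.25), 8b (Zfp709, -0.28), 9a (Zfp426, -0.21), 6a (Zfp398, -0.31), 5a (Zfp157, -0.36), 4a (Zfp991, -0.57) and 7a (Zfp579, -0.44). It was higher in 6b (Zfp637, 0.28), 9b (Zfp653, 0.25) and 7d (Zfp574, 0.18). Of these 10 calls, those of Zfp398, Zfp991 and Zfp579 held with each library left out. That of Zfp157 was lost without control replicate 3 (adjusted p = 0.0559), and each of the other 6 was lost without Satb1 cKO replicate 3 and at least 1 further library. For Zfp991, 82.2% of its 50-base words are shared with other genes.

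Lower calls were also counted away from shared sequence and antisense overlap. Of 99 KRAB members with at most 10% shared words and no exon overlap on the opposite strand, 29 were lower and 2 higher, with a median of -0.18, the same as for all KRAB members. Of the 37 members with over 10% shared words, 14 were lower and 1 higher. Of protein-coding genes at a mean CPM of at least 2, 23.6% were lower and 24.6% higher. The share lower among the 99 was only modestly above that background. In both sets the clearer difference was the small share called higher.

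Members without the KRAB pattern changed in both directions. The largest rise was that of Zfp827, which recruits the NuRD complex to telomeres. It stood at 41.0, 33.2 and 32.9 CPM in control and 85.9, 80.4 and 88.8 CPM in Satb1 cKO, a log2 fold change of 1.24 (SE 0.0805, edgeR adjusted p = 5.46e-07). Zfp516, a transcription factor of brown fat, rose from 2.95, 3.56 and 3.31 to 7.93, 6.47 and 5.55 CPM (1.03, SE 0.177, adjusted p = 0.000721). Zfp219, a partner of SOX9 in cartilage, rose from 47.1 to 49.8 CPM to between 68.5 and 83.7 CPM (0.68, adjusted p = 2.27e-05), and its exons overlap Arhgef40 and 2 other genes on the opposite strand. Zfp704 (0.77), Zfp296 (0.53) and Zfp703 (0.40), all under 18 CPM in every library, were also higher. The call of Zfp704 was lost without Satb1 cKO replicate 1 (adjusted p = 0.0669) or control replicate 3 (0.0672).

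The paralogues Zfp608 and Zfp609 changed in opposite directions. Zfp608, a regulator of Rag gene expression in thymocytes, stood at 3.40, 3.76 and 3.89 CPM in control and 2.10, 0.858 and 1.45 CPM in Satb1 cKO, a fall of 1.31 on the log2 scale (SE 0.275, adjusted p = 0.00273). Zfp609, a partner of the cohesin loader NIPBL, stood at 75.7, 72.0 and 75.1 CPM in control and 99.6, 105 and 108 CPM in Satb1 cKO, a rise of 0.49 (SE 0.0475, adjusted p = 1.28e-05). Neither pair of groups overlapped, which the rule that named the largest rises and falls required. Zfp608 met the CPM minimum of 2 through its control libraries, as its mean in Satb1 cKO was below 2. Per exon length Zfp609 was the higher of the 2, at 10.8 against 0.303 RPKM (CPM per kilobase of exon, mean over libraries).

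The falls with the smallest p outside the clusters were those of Zfp292, Zfp367, Zfp831 and Zfp287. Zfp292, a large transcriptional regulator, stood at 143, 159 and 156 CPM in control and 82.6, 96.2 and 85.9 CPM in Satb1 cKO (-0.79, SE 0.0626, adjusted p = 2.57e-06). Zfp287 stood at 14.3, 15.7 and 16.0 CPM in control and 6.78, 8.41 and 7.55 CPM in Satb1 cKO (-1.02, SE 0.114, adjusted p = 3.60e-05). In Zfp831, expressed in lymphocytes, the 3 Satb1 cKO libraries lay between 35.9 and 36.3 CPM and the control libraries between 51.2 and 59.8 CPM (-0.63, adjusted p = 1.88e-05). Zfp367 fell by 0.58 (adjusted p = 6.54e-06). Lower in abundance, Zfp808 (-0.69) and Zfp558 (-0.73) were also lower. The call of Zfp558 was lost without control replicate 1 (adjusted p = 0.0617), and in cluster 6a that of Zfp467 (-0.69) without control replicate 2 (0.0823) or Satb1 cKO replicate 3 (0.0614).

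**Figure D5:**
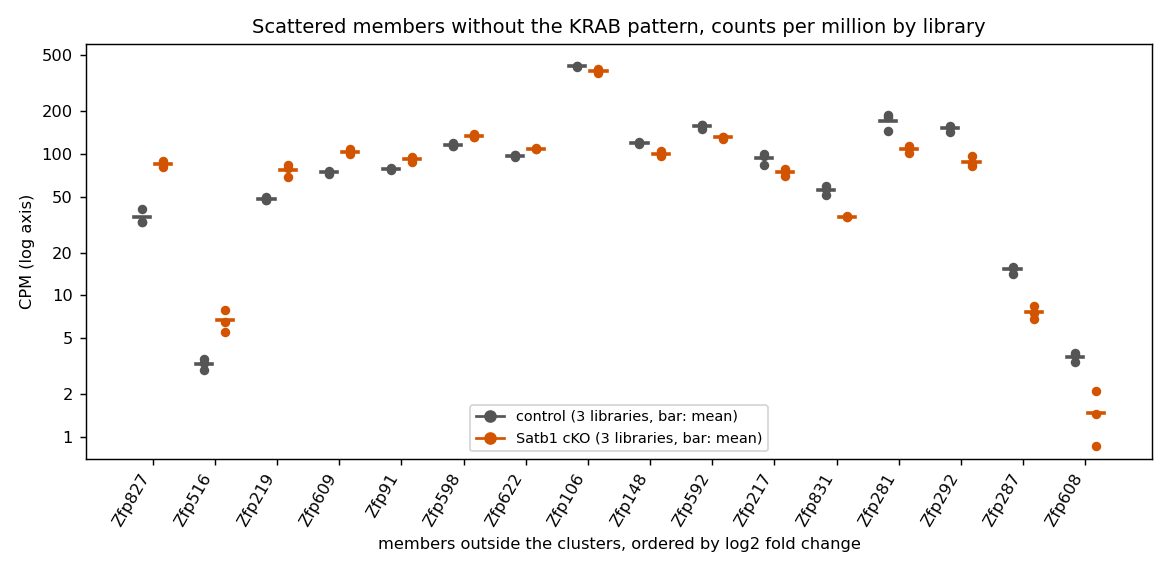
CPM in each library (points, log axis) and group mean (bars) for 16 scattered members without the KRAB pattern, picked after their values were seen, from the largest rise (Zfp827, left) to the largest fall (Zfp608, right); gray is control, orange Satb1 cKO. In all 16 the groups do not overlap, as in all 20 members called higher and 72 of the 74 called lower. Of all genes tested, 26.5% had all Satb1 cKO libraries below control and 27.0% above. In the abundant Zfp106 the gap is small, from 414 or more to 397 or less.

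Among 22 members with an established role outside the KRAB family, 8 were lower and 5 higher, beside 20.7% and 21.6% of all genes tested, and the median log2 fold change was -0.10. The share called higher was near that of all genes. Lower were Zfp281, a repressor of pluripotency genes, at 146, 188 and 183 CPM in control and 102, 114 and 110 CPM in Satb1 cKO (-0.66, SE 0.0842, adjusted p = 9.08e-05), and its relative Zfp148 (-0.26). Zfp217, a subunit of CoREST and CtBP repressor complexes (-0.33), Zfp592, a partner of ZMYND8 (-0.26), and Zfp638, which silences unintegrated retroviral DNA with the HUSH complex (-0.25), also fell. Zfp106, an RNA-binding protein of motor neurons, had -0.11, and its call was lost without Satb1 cKO replicates 2 or 3 or control replicate 3 (adjusted p from 0.0635 to 0.105). Higher were Zfp598, a ubiquitin ligase that senses collided ribosomes (0.21), Zfp622, a maturation factor of the large ribosomal subunit (0.16), Zfp91, a ubiquitin ligase of noncanonical NF-kB signalling (0.23), and the BTB protein gene Zfp131 (0.17). The call of Zfp131 was lost without control replicates 2 or 3 or Satb1 cKO replicate 2 (up to 0.0969).

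Not called were Zfp36, which encodes the mRNA decay factor tristetraprolin (-0.05), Zfp143, a promoter and loop factor (-0.04), Zfp335, needed for T cell maturation (0.05), Zfp207, a spindle assembly protein (-0.09), Zfp318 (-0.13), Zfp384 (0.04), Zfp451, a SUMO ligase (-0.02), Zfp644, a partner of the G9a methyltransferase (-0.17), and Zfp687 (-0.19). In each of these 9 the groups overlapped.

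Of 4 KRAB members with established targets 2 were called, both lower. Of all genes tested, 42.3% were called in either direction and 20.7% lower, so 2 of 4 is near the background. Zfp445, which protects imprinted methylation, stood at 211, 193 and 208 CPM in control and 176, 194 and 188 CPM in Satb1 cKO (-0.14, SE 0.0503, adjusted p = 0.0487). Its groups overlapped, and the call was lost without control replicates 1 or 3 or Satb1 cKO replicates 1 or 3 (up to 0.17) and in DESeq2 (0.0546). Zfp932, a repressor of endogenous retroviruses, had -0.33 (adjusted p = 0.027), with 37.0% of its words shared with other genes, and was not called without Satb1 cKO replicates 1 or 3 or control replicate 3. Zfp568, a repressor of Igf2 (-0.02), and Zfp809, which binds retroviral primer sites (-0.06), were not called.

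Per exon length the most abundant members were Zfp869 (46.2 RPKM, mean over the 6 libraries), Zfp207 (41.7), Zfp106 (38.6), Zfp146 (33.7) and Zfp598 (32.1). The median member stood at 3.76 RPKM and the range was 0.163 to 46.2. The median was 2.67 RPKM for members with the KRAB pattern and 5.81 RPKM for those without. Zfp869 (-0.03) and Zfp146 (-0.04) were not called and their groups overlapped.

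Genes for the machinery that KRAB proteins recruit were described from a list of 29, all tested, of which 4 were higher and 12 lower, beside 21.6% and 20.7% of all genes tested. All but Trim24 stood above 50 CPM. Of protein-coding genes at a mean CPM of 50 or more, 29.2% were called higher and 26.4% lower. The list's median log2 fold change was -0.12. Dnmt1, the maintenance DNA methyltransferase, had 570 ± 36.7 CPM in control and 379 ± 16.1 CPM in Satb1 cKO (SD, n = 3; -0.59, edgeR adjusted p = 5.16e-06). The HP1 genes Cbx5 (-0.40) and Cbx3 (-0.27) and the NuRD subunit gene Mta1 (-0.31) were lower. Trim28, the direct partner of the KRAB domain, was higher by 0.14, as were Morc2a (0.35), Mbd3 (0.16) and Gatad2a (0.18). Setdb1 had -0.01 and was not called.

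RefSeq promoter windows, 250 bases before to 50 bases after the start, were matched for 227 members. The median A and T content was 47.3% for 134 KRAB members, 40% for 93 members without the pattern and 39% for all 8988 tested protein-coding genes, and the median number of CpG sites was 11, 19 and 21. With a match on either strand counted, the CCAAT box was found in 53.7% of KRAB member promoters, 43.0% of the other members' and 39.4% of all. The ETS core CCGGAAG was found in 23.1%, 20.4% and 19.9%, the YY1 core ATGGCGG in 13.4%, 8.60% and 9.08%, and the NRF1 core GCATGCG in 3.73%, 8.60% and 6.98%. Among KRAB members, the 43 called lower and the 88 not called had medians of 47.7% and 47% A and T, 10 and 11 CpG sites, and CCAAT in 58.1% and 52.3%. Of 17 matched members of cluster 17a, 7 held CCAAT and 3 the ETS core; in the windows above, Zfp53 held both and Zfp677 CCAAT alone.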

How the data were processed

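RNA was measured by sequencing in 6 libraries, 3 per group, and groups and replicate numbers follow the sample titles. The authors deposited raw counts of reads per gene for each library. Per the submitters' processing notes, STAR 2.7.3a, HTSeq 0.12.4 and the mm10 build were used. No annotation release or strand option is given in the sources used here. Summary lines that name no gene were left out (reads on no feature 7.32% to 9.50%, ambiguous reads 5.40% to 5.57%, reads with several alignments 2.92% to 3.16% of all reads in the tables).

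Names and positions (GRCm38, 1-based) come from GENCODE M21. edgeR 4.0.16 (R 4.3.3; filterByExpr, TMM, glmQLFit, glmQLFTest, group as only term) was run on all genes, with Benjamini-Hochberg adjustment over the 13364 tested. CPM by library use TMM-scaled library sizes; the minimum of 2 uses plain totals. RPKM divides mean CPM by exon length. C2H2 fingers and the KRAB box were found by residue patterns in translated GENCODE coding sequences, in place of the RefSeq proteins planned. Promoter sequences are RefSeq's (GRCm38.p6). The scripts were tested on simulated data.

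The members and lists were chosen with earlier results of these data known. Named genes are the 10 largest rises and 10 largest falls among called members whose groups do not overlap, the 5 of smallest p each way, the 5 of highest level per length, the member of smallest p in each cluster, 3 genes on each side of the CPM minimum, listed genes of established role, Satb1, and 4 corepressor genes; members of the clusters described were given as well. Alternatives were DESeq2 1.42.0, other scalings, no filter, stricter p, other CPM minimums and cluster gaps, a replicate block, exclusion of receptor, mitochondrial and globin genes, and each library left out. Depth was 14895389 to 20266626 gene reads, and the lowest count of a member in a library was 15 reads.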

Additional observations from a re-analysis of the deposited data

How the results depend on the processing

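Scaling barely moved the results: under DESeq2's size factors or total counts the same 94 members were called (95 with total counts), and the median of all genes moved by under 0.1 on the log2 scale. DESeq2's own test called fewer: 11 higher members, 2 higher and 31 lower with the KRAB pattern, 9 higher without it, and 2 higher and 25 lower in clusters; all of its 66 calls were among the 94. Members named in the text that it did not call were Zfp131, Zfp160, Zfp418, Zfp426, Zfp445, Zfp558, Zfp563, Zfp574, Zfp595, Zfp637, Zfp65, Zfp653, Zfp655, Zfp704, Zfp709, Zfp747, Zfp771, Zfp799, Zfp85, Zfp90, Zfp944, Zfp974 and Zfp995. At an adjusted p under 0.01, 10 members were higher and 40 lower. With no filter on low counts 2 KRAB members and 3 clustered members were higher, and 87 of 94 calls were shared. With one library left out, calls ranged from 12 to 20 higher and 53 to 73 lower for all members, 2 to 5 and 28 to 46 with the KRAB pattern, 10 to 15 and 24 to 28 without it, 2 to 7 and 23 to 38 in clusters, and 0 and 7 to 13 in cluster 17a; the median log2 fold change stayed between -0.12 and -0.10. Among the leave-one-out fits, members of small or uncertain difference that were not called changed sign, with log2 fold changes from -0.2817 to 0.0545 for Zfp174, -0.3681 to 0.3156 for Zfp937, -0.03 to 0.1092 for Zfp335, -0.0007 to 0.0571 for Zfp384, -0.0546 to 0.0043 for Zfp568 and -0.0569 to 0.0021 for Zfp869. The cause was not tested. Same-numbered libraries did not deviate together (correlations 0.021, -0.013 and 0.028). This check cannot tell whether the numbers pair samples by litter, day or preparation, which the labels do not state. With a replicate block in edgeR 92 members were called, 21 higher, and 88 of the 94 were shared. Zfp445 (adjusted p = 0.0752), Zfp637 (0.0638) and Zfp850 (0.0553) were among those not called with the block. Between 2 and 5 CPM, 22.2% of 36 members and 38.4% of 861 protein-coding genes were called.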
